A study of Mus musculus with 17 samples.

Results

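Natural killer (NK) cells read their targets through a balance of activating and inhibitory surface receptors, and 10 mouse genes of that system were followed across the 17 arrays: Klrd1, Klrk1, Klrb1c, Klre1, Klrg1, Ncr1, Cd244, Cd226, Tyrobp and Hcst. A probe set was taken for a gene where the platform annotation gave that gene's symbol alone, and where a gene had several, the brightest on average stood for it. By this rule 9 of the 10 genes had a probe set, among 17097 genes in the whole table. Klre1 had none and was not analysed here. Cd244 is carried under its current name Cd244a. Of the 9, 8 entered the tests with 11625 genes in all, because a gene was tested only where its highest group mean lay above 3.83, the median of all values. Cd226, with a highest group mean of 3.80, did not. A gene that passed only through the group in which it was high had to differ, so counts over the tested genes describe them and carry no further weight.

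The 13 leukemia arrays hold spleen cells of recipient mice, aged 4 to 8 weeks and irradiated with 4.5 to 6 Gy, into which malignant cells carrying Myc and Bcl2 had been injected. The cells of origin named in the labels are LSK cells, the stem and early progenitor fraction of the marrow (3 arrays), DN2 cells of the thymus, a stage of immature T-cell precursors (5 arrays), and granulocyte-macrophage progenitors or GMP (5 arrays). The series text describes the sort as CD11b+ and Gr1+ and as negative for CD3, CD4 and CD8. Healthy DN2 cells of the thymus (2 arrays) and healthy GMP of the marrow (2 arrays) carry neither gene as a transgene, and their age is not stated. All 17 samples are labelled C57/Bl6 and wildtype. The labels do not say that replicates came from separate mice, so a p-value here measures only the spread between these samples. In such bulk samples, fewer cells of a type and less RNA per cell cannot be told apart.

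Most of these receptors have a C-type lectin-like fold and are encoded together in the NK gene complex of mouse chromosome 6. Klrd1 encodes CD94, which pairs with NKG2 chains to read the class I molecule Qa-1. Klrk1 encodes NKG2D, an activating receptor for stress-induced ligands, and Klrb1c encodes NK1.1, the antigen by which NK cells of this strain are usually gated. Klrg1 is an inhibitory receptor of mature NK and effector T cells that binds cadherins. Ncr1 (NKp46) is an immunoglobulin-like activating receptor, Cd244 (2B4) is a receptor of the SLAM family, and Cd226 (DNAM-1) binds nectin-like ligands. Most of the activating receptors lack a signalling motif of the ITAM kind and borrow it from adaptors. Tyrobp (DAP12) carries an ITAM and serves NK and many myeloid receptors, whereas Hcst (DAP10) recruits phosphoinositide 3-kinase and serves Klrk1. In T cells several of the same receptors appear after activation.

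At the RNA level the arrays did not all show what their labels name. Values are log2 expression values, with array medians from 3.80 to 3.86. A value near that level is background, and a difference from a group at background is compressed. Itgam, which encodes CD11b, was 7.17, 3.47, 7.38, 3.24 and 3.42 in DN2-labelled leukemia arrays 1 to 5, against 8.06 to 9.95 in the GMP-labelled and 8.99 to 10.03 in the LSK-labelled arrays. Cd3e, a chain of CD3, ran from 7.79 to 9.06 in the DN2-labelled arrays and did not exceed 5.34 in the other leukemia arrays. Cd3e RNA was thus present in all 5 DN2-labelled arrays, and Itgam RNA was low in arrays 2, 4 and 5. The sort reads surface protein, which these values do not measure, so they do not show whether the sort held. Healthy DN2 cells held RNA of another CD3 chain, Cd3g, at 10.00 and 9.89, and Cd3e at 5.56 and 5.48. Mycn, a gene of the Myc family, was 12.82, 4.91 and 4.22 in LSK-labelled arrays 1 to 3 and at least 11.58 in every other leukemia array. Bcl2 was 11.30, 6.75 and 5.27 in LSK-labelled arrays 1 to 3 and 9.25 to 11.53 in the other leukemia arrays. Healthy cells held Bcl2 at 5.89 to 6.99. LSK-labelled arrays 2 and 3 were thus low in both genes. For Bcl2 this goes against their label, which names Myc and not Mycn beside it. The level of Myc itself is not given here. The mean of 12 T cell markers ran from 8.70 to 9.06 in the DN2-labelled arrays and the mean of 9 neutrophil markers from 3.43 to 5.24. In the LSK-labelled and GMP-labelled arrays the T cell mean did not exceed 4.47 and the neutrophil mean was at least 11.48. The mean of 10 NK cell markers, chosen to leave out the receptors described here, was 8.73 to 10.12 in the DN2-labelled arrays, 6.77 to 7.77 in the LSK-labelled arrays and 4.91 to 5.45 in the GMP-labelled arrays. Groups are therefore called by their labels throughout.

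The upstream sequences of the genes whose levels are set side by side below are given first. Klrk1, Klrb1c and Hcst were each higher in every DN2-labelled leukemia array than in any other array. Hcst also stood well above background in every other group, whereas Klrk1 and Klrb1c were near background in the GMP-labelled leukemias. Ncr1 was split within the DN2-labelled group. The 250 bases before the annotated start come from RefSeq on GRCm38.p6, for Klrk1 at chr6:129623865-129624114 (minus strand), Klrb1c at chr6:128788642-128788891 (minus strand), Ncr1 at chr7:4337465-4337714 (plus strand) and Hcst at chr7:30419855-30420104 (minus strand). Capitals mark the Runx motif TGTGGT (reverse ACCACA) in the first 3 and the Ets motif AGGAAGT (reverse ACTTCCT) in Hcst.
Klrk1: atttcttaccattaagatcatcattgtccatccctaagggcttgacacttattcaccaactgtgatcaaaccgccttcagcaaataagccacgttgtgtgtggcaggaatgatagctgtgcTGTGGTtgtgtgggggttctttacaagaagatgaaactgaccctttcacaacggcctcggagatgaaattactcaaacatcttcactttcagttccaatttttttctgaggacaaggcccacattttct
Klrb1c: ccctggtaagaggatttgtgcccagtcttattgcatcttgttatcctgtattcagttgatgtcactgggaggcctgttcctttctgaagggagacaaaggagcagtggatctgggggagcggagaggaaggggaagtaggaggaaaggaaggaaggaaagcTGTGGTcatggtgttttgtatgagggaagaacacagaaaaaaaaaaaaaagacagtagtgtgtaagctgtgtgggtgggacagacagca
Ncr1: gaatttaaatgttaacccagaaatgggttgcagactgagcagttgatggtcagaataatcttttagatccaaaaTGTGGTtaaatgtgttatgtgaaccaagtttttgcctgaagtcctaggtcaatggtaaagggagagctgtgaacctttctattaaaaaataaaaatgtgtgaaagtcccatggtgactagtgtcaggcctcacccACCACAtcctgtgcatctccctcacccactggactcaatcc
Hcst: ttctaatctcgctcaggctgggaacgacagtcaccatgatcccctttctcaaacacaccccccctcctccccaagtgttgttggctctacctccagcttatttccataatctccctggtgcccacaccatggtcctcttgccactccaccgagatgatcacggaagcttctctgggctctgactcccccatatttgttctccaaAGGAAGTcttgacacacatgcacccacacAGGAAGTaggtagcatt

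Both strands were searched for these motifs and for the T-box motif GGTGTGA (reverse TCACACC), the kinds of site read by Runx3, Ets1 and the T-box factors Tbx21 and Eomes. Of all 32851 RefSeq promoters of the same length, 14.0% held the Runx motif, 7.69% the Ets motif and 3.33% the T-box motif. RefSeq gave 2 promoters each for Ncr1 and Klre1, of which only the first listed was shown or searched. Klrk1, Klrb1c and Klre1 held 1 Runx motif each and Ncr1 held 2. Hcst held 2 Ets motifs and no Runx motif. The Cd244 promoter held none of the 3 motifs, and the T-box motif was absent from these windows in all 6 genes with a sequence. The motifs were chosen with these genes in view and a match is a description of letters only. Klrd1, Klrg1, Cd226 and Tyrobp are named only.

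Klrd1, Klrk1 and Klrb1c were high in every DN2-labelled leukemia array and at or near background in the GMP-labelled leukemias. Klrd1 was 11.90, 10.43, 11.78, 11.28 and 10.12 in DN2-labelled arrays 1 to 5. In the GMP-labelled arrays it was 2.72, 2.82, 3.16, 3.09 and 2.96, and in the LSK-labelled arrays 5.55, 7.60 and 8.31. Healthy DN2 cells gave 4.98 and 4.13 and healthy GMP 2.99 and 3.00. Every DN2-labelled array therefore lay above every array of the other groups, the LSK-labelled arrays came next, and no array of those 2 groups overlapped any other group.

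Klrk1 was 11.85, 9.10, 12.09, 10.70 and 11.53 in DN2-labelled arrays 1 to 5, lowest in array 2. Its LSK-labelled values were 5.16, 7.98 and 7.30. The GMP-labelled arrays gave 3.85, 3.54, 3.52, 3.82 and 3.79, all close to background. Unlike Klrd1, Klrk1 was low in healthy DN2 cells (3.51 and 3.55) and somewhat higher in healthy GMP (4.92 and 4.63). LSK-labelled array 1 lay only just above healthy GMP.

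Klrb1c was the most even of the 3 among the DN2-labelled arrays, at 10.80, 10.68, 10.88, 10.65 and 9.86, with array 5 below the others. The LSK-labelled values were 4.30, 6.04 and 6.55. The GMP-labelled arrays held 3.66, 3.51, 3.30, 3.32 and 3.22, and the healthy arrays lay between 3.16 and 3.85. Thus only leukemias labelled DN2 or LSK stood above background for Klrb1c, and LSK-labelled array 1 did so only a little. The SD among the DN2-labelled arrays was 0.80 for Klrd1, 1.21 for Klrk1 and 0.41 for Klrb1c (n = 5).

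**Figure D1:**
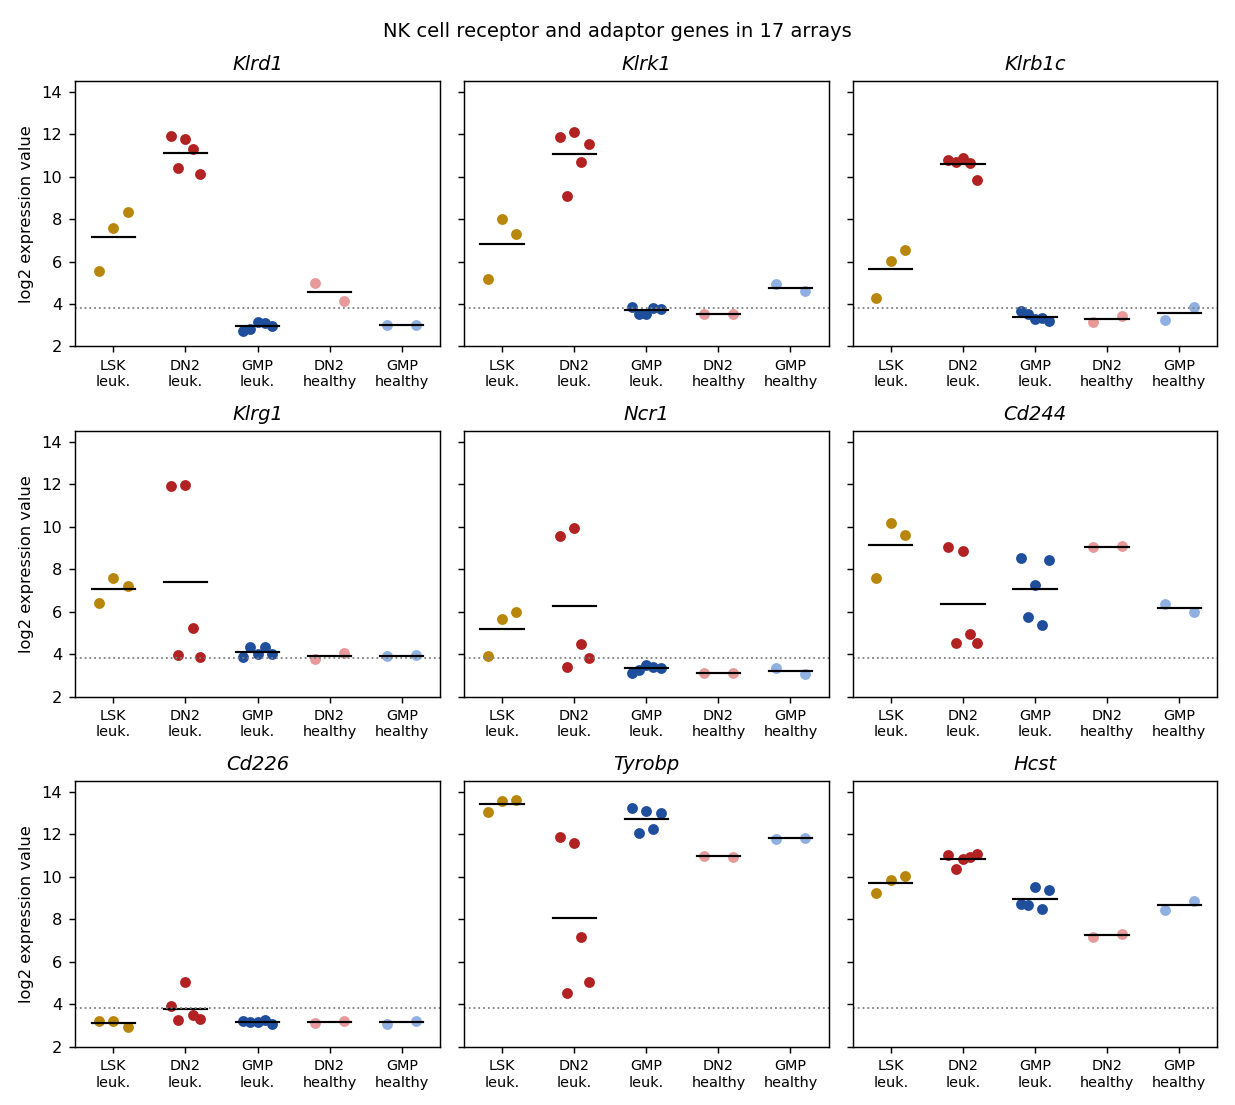
Log2 expression of each NK receptor and adaptor gene (y axis) in every array, by group (x axis), with 1 point per array, the group mean as a line and the median of all values, 3.83, dotted. Klrd1, Klrk1 and Klrb1c stand above 9 in all 5 DN2-labelled leukemia arrays, whereas Klrg1, Ncr1, Cd244 and Tyrobp spread widely in that group.

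Klrg1 and Ncr1 were split within the DN2-labelled group. Klrg1 was 11.94 and 11.98 in DN2-labelled arrays 1 and 3, and 3.98, 5.24 and 3.84 in arrays 2, 4 and 5. Ncr1 was 9.56 and 9.95 in arrays 1 and 3, and 3.40, 4.50 and 3.82 in arrays 2, 4 and 5. Arrays 2 and 5 were at background for Ncr1 and close to it for Klrg1, and array 4 lay a little higher for both. In the LSK-labelled arrays Klrg1 was even, at 6.39, 7.59 and 7.19, and Ncr1 was 3.93, 5.66 and 5.97. The GMP-labelled arrays held 3.86 to 4.34 for Klrg1 and 3.13 to 3.50 for Ncr1, and all healthy arrays lay at or below 4.04 for Klrg1 and at or below 3.34 for Ncr1.

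Cd244 followed the same split at higher levels and was not particular to any leukemia. It was 9.06 and 8.86 in DN2-labelled arrays 1 and 3, against 4.51, 4.93 and 4.53 in arrays 2, 4 and 5. Healthy DN2 cells gave 9.03 and 9.09, so arrays 1 and 3 lay at the level of the healthy cells and the other 3 far below it. The LSK-labelled arrays gave 7.59, 10.16 and 9.61, the GMP-labelled arrays 8.51, 5.74, 7.23, 5.39 and 8.44, and healthy GMP 6.38 and 5.98. A second Cd244 probe set set the same arrays apart in the DN2-labelled group, at 7.59 and 7.92 in arrays 1 and 3 and 4.54, 5.21 and 3.79 in arrays 2, 4 and 5. Cd226 stood above background mainly in DN2-labelled array 3 (5.04) and stood at 3.92, 3.24, 3.49 and 3.29 in arrays 1, 2, 4 and 5. All other groups lay between 2.92 and 3.24 for Cd226.

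DN2-labelled arrays 1 and 3 also differed from the other 3 in the means of some marker lists of other cells. Their mean over 8 monocyte and macrophage markers was 7.87 and 6.30, against 4.87, 5.55 and 5.30 in arrays 2, 4 and 5. Some genes of that list did not set array 3 apart. Adgre1 was 7.60 and 3.07 in arrays 1 and 3, against 3.02, 3.80 and 3.17. Lyz2 was 11.48 and 6.59, against 4.33, 7.12 and 5.63. Array 3 also lay within the range of arrays 2, 4 and 5 for Csf1r (4.76) and Cd14 (4.21). Its higher mean thus lay mainly in other markers of the list. Over 5 dendritic cell markers the mean of arrays 1 and 3 was 4.50 and 4.56, against 3.44, 3.80 and 3.61. Of these markers Itgax, also found on NK cells, was 8.30 and 8.22, against 3.66, 4.79 and 3.71. The neutrophil mean did not separate the arrays, at 5.24 and 4.17 against 3.43, 3.71 and 5.10. The NK cell mean, at 10.12 and 10.07, also exceeded the 8.73, 9.27 and 9.08 of the other arrays, whereas the T cell mean spanned only 8.70 to 9.06 over all 5. The part of these markers in the levels of Klrg1, Ncr1 and Cd244 was not tested.

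**Figure D2:**
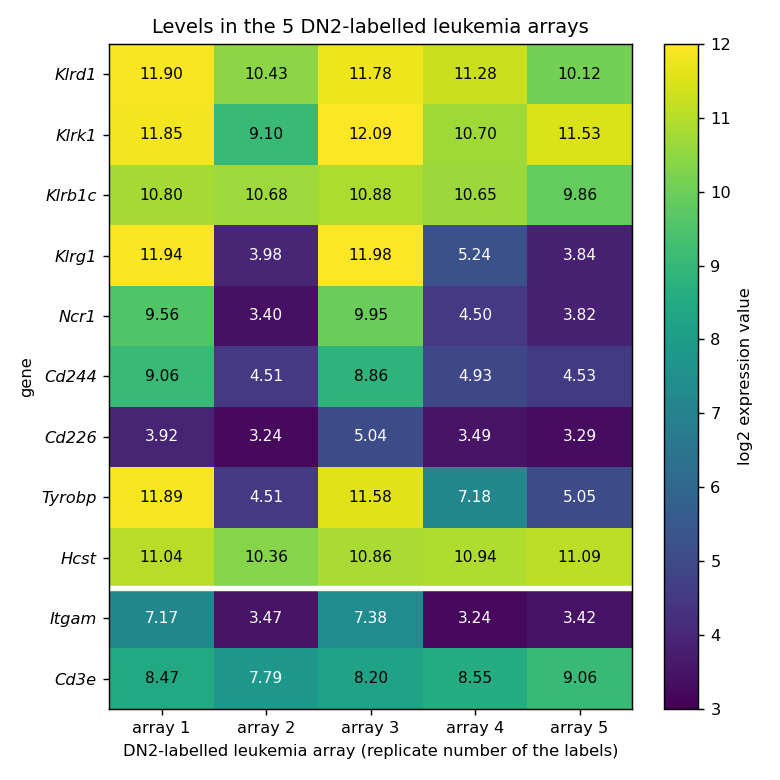
Log2 expression of the NK receptor and adaptor genes with Itgam and Cd3e (rows) in the 5 DN2-labelled leukemia arrays (columns), with the value printed in each cell. Read along a row, Klrg1, Ncr1, Cd244, Tyrobp and Itgam are highest in arrays 1 and 3, and Klrd1, Klrb1c, Hcst and Cd3e are high in all 5.

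The adaptor genes Tyrobp and Hcst are direct neighbours on chromosome 7 in the RefSeq gene order, and they parted in the DN2-labelled arrays. Tyrobp was 11.89 and 11.58 in arrays 1 and 3, and 4.51, 7.18 and 5.05 in arrays 2, 4 and 5. Every other leukemia array held at least 12.08, with 13.04, 13.57 and 13.63 in the LSK-labelled and 13.24, 12.08, 13.11, 12.24 and 13.00 in the GMP-labelled arrays. Healthy DN2 cells gave 10.96 in both arrays and healthy GMP 11.80 and 11.81. DN2-labelled arrays 2, 4 and 5 were thus the lowest of all 17 arrays for Tyrobp.

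Hcst was even in the DN2-labelled arrays, at 11.04, 10.36, 10.86, 10.94 and 11.09, all above every other array. The LSK-labelled arrays followed at 9.26, 9.84 and 10.04. Then came the GMP-labelled arrays at 8.71, 8.69, 9.51, 8.49 and 9.37, which overlapped the LSK-labelled arrays and healthy GMP (8.45 and 8.88). Healthy DN2 cells were lowest at 7.17 and 7.32. In DN2-labelled arrays 2, 4 and 5 Hcst was thus high while Tyrobp was low.

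Further ITAM adaptors were read from the signalling list. Fcer1g, the Fc receptor gamma chain that serves Klrb1c and Ncr1, was 11.43, 6.82, 11.08, 8.91 and 8.66 in DN2-labelled arrays 1 to 5, with arrays 1 and 3 highest as for Tyrobp. Its mean was 12.18 ± 0.51 in the GMP-labelled arrays (SD, n = 5), and the DN2-labelled arrays were lower by a log2 difference of -2.80 ± 0.67 (SE, limma, adjusted p = 0.00384). Cd247, the CD3 zeta chain that pairs with the T-cell receptor and Ncr1, was 9.28, 9.19, 9.43, 9.30 and 8.11 in the DN2-labelled arrays and 3.34 to 3.57 in the GMP-labelled arrays. Healthy DN2 cells already held 8.09 and 8.36 of Cd247.

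**Figure D3:**
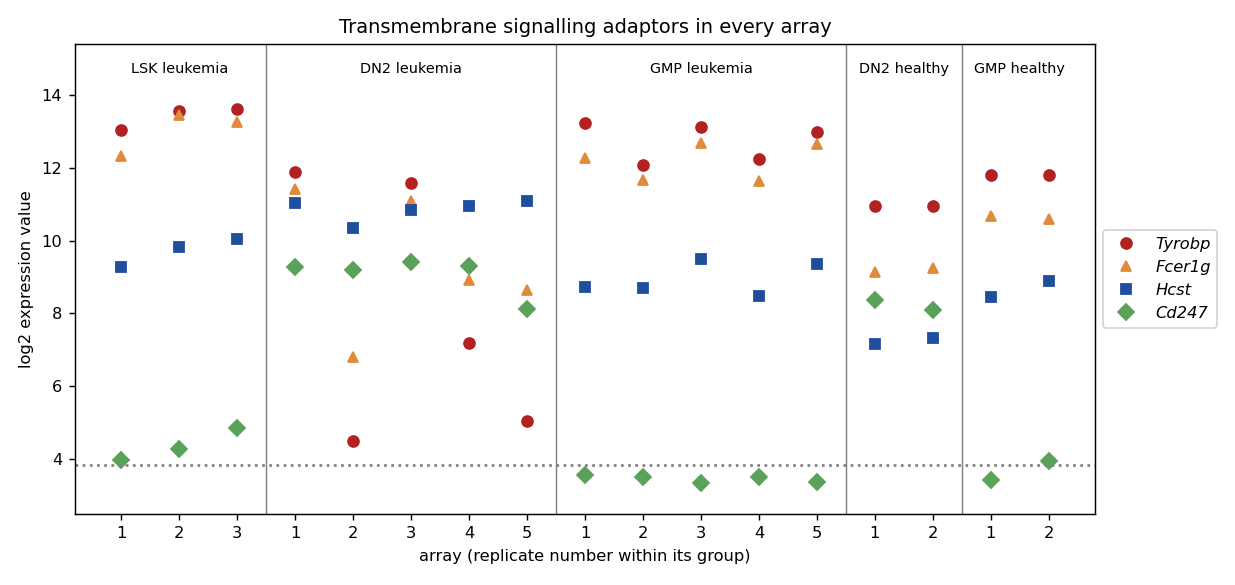
Log2 expression of the adaptor genes Tyrobp, Hcst, Fcer1g and Cd247 (y axis) in each array by group (x axis), with 1 point per array. In the DN2-labelled leukemias Tyrobp runs from 4.51 to 11.89 and Fcer1g from 6.82 to 11.43, whereas Hcst stays between 10.36 and 11.09.

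The DN2-labelled and GMP-labelled leukemias were compared first, since the series sets leukemias of different origin against each other under 1 label of myeloid disease. In this comparison 5 of the 8 tested genes were higher in the DN2-labelled arrays and 1 was lower, where 21.0% of all genes tested were higher and 18.8% lower. Klrd1 was higher by a log2 difference of 8.16 ± 0.45 (SE, adjusted p = 2.35e-09), Klrb1c by 7.17 ± 0.33 (adjusted p = 3.06e-10) and Klrk1 by 7.35 ± 0.54 (adjusted p = 5.45e-08). Hcst was higher by 1.90 ± 0.22 (adjusted p = 7.76e-06). The groups did not overlap in any array for these 4 genes and for Tyrobp, 5 of 8 where 28.1% of all genes tested did not overlap. Tyrobp was lower by a difference of -4.69 ± 1.19 (adjusted p = 0.00549). The median difference over the 8 genes was 3.11, against 0.03 over all genes tested.

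Ncr1 passed the threshold narrowly, with a difference of 2.92 ± 1.11 (adjusted p = 0.0486), although 1 of the DN2-labelled arrays lay within the range of the GMP-labelled arrays. The call was lost without DN2-labelled array 1 (2.09, adjusted p = 0.127), without array 3 (1.99, adjusted p = 0.12), without any 1 of the GMP-labelled arrays (adjusted p from 0.0713 to 0.0815), without the filter on dim genes (adjusted p = 0.0727) and with only the groups compared in the fit (adjusted p = 0.0929). Klrg1 had a larger difference, 3.29 ± 1.41, and did not pass (adjusted p = 0.0782). It passed without DN2-labelled array 2 (4.15, adjusted p = 0.031) and without array 5 (4.18, adjusted p = 0.0272), both low in Klrg1. Cd244 gave -0.69 ± 0.98 (adjusted p = 0.631). Without DN2-labelled arrays 1 and 3 the differences were 0.25 for Klrg1, 0.58 for Ncr1, -2.41 for Cd244 and -7.16 for Tyrobp, whereas those of Klrd1 (7.66), Klrk1 (6.74), Klrb1c (6.99) and Hcst (1.84) stayed close to those over all 5 arrays.

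Against the LSK-labelled leukemias the same 3 lectin-like receptors and Hcst were higher in the DN2-labelled arrays, and Tyrobp was again lower. Thus 4 of 8 genes were higher and 1 was lower, beside 28.4% and 19.1% of all genes tested, and 5 of 8 did not overlap between the groups, beside 42.0%. The log2 differences were 3.95 ± 0.52 for Klrd1 (adjusted p = 3.14e-05), 4.24 ± 0.62 for Klrk1 (adjusted p = 8.06e-05), 4.94 ± 0.38 for Klrb1c (adjusted p = 1.78e-07) and 1.15 ± 0.26 for Hcst (adjusted p = 0.00221). The median over all genes was 0.11, so these values stand well above the general shift. Tyrobp gave -5.37 ± 1.37 (adjusted p = 0.00506), and -5.00 with an adjusted p of 0.114 when LSK-labelled arrays 2 and 3, low in Mycn, were left out, which leaves 1 array in that group and takes the spread from the others. Klrg1 (0.34 ± 1.63, adjusted p = 0.883), Ncr1 (1.06 ± 1.28, adjusted p = 0.53) and Cd244 (-2.74 ± 1.13, adjusted p = 0.0593) did not pass. Cd244 was called as lower in 5 of 18 alternatives: without DN2-labelled array 1 (-3.41, adjusted p = 0.0174), array 3 (-3.36, adjusted p = 0.0213) or both (-4.46, adjusted p = 8.46e-04), without LSK-labelled array 1 (-3.51, adjusted p = 0.0353) and with array weights (-3.67, adjusted p = 0.00412). Without DN2-labelled arrays 1 and 3, Klrg1 (-2.70, adjusted p = 7.36e-05) and Ncr1 (-1.28, adjusted p = 0.0265) turned sign and were called as lower. For Klrg1, every LSK-labelled array lay between DN2-labelled arrays 1 and 3 on the high side and arrays 2, 4 and 5 on the low side.

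The LSK-labelled leukemias, myeloid by their Itgam and neutrophil markers, nevertheless held more of the lectin-like receptors than the GMP-labelled leukemias. Klrd1 was higher by 4.20 ± 0.52 (SE, adjusted p = 8.06e-05), Klrk1 by 3.11 ± 0.62 (adjusted p = 0.00231), Klrb1c by 2.23 ± 0.38 (adjusted p = 8.60e-04) and Hcst by 0.76 ± 0.26 (adjusted p = 0.0418). These 4 of 8 genes compare with 10.3% of all genes tested that were higher, and none was lower, beside 16.5%. The arrays did not overlap for 5 of 8 genes, beside 23.9%. Klrg1 did not overlap between the groups but did not pass (2.95 ± 1.63, adjusted p = 0.199). Neither did Ncr1 (1.86 ± 1.28, adjusted p = 0.313), Cd244 (2.06 ± 1.13, adjusted p = 0.199) or Tyrobp (0.68 ± 1.37, adjusted p = 0.766). With only these groups in the fit, and thus without the SD of 4.20 of Klrg1 in the DN2-labelled arrays, Klrg1 (adjusted p = 9.17e-04) and Ncr1 (adjusted p = 0.024) passed.

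LSK-labelled array 1, the array with high Mycn, was the lowest of its group for all 8 tested genes. With that array alone against the GMP-labelled leukemias, the spread comes from the other groups only and the lone array is assumed to vary like them. On that basis Klrd1 was higher by 2.60 (adjusted p = 0.00935), whereas the calls of Klrk1 (1.45, adjusted p = 0.263), Klrb1c (0.90, adjusted p = 0.109) and Hcst (0.31, adjusted p = 0.667) were lost. The Hcst call was also lost without the filter on dim genes (adjusted p = 0.0533), with only the groups compared (adjusted p = 0.12), without LSK-labelled array 2 or 3 (adjusted p = 0.138 and 0.172), and without GMP-labelled array 1, 2 or 4 (adjusted p from 0.0721 to 0.0877). The NK cell marker mean of the LSK-labelled arrays exceeded that of the GMP-labelled arrays, and its part in these differences was not tested.

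**Figure D4:**
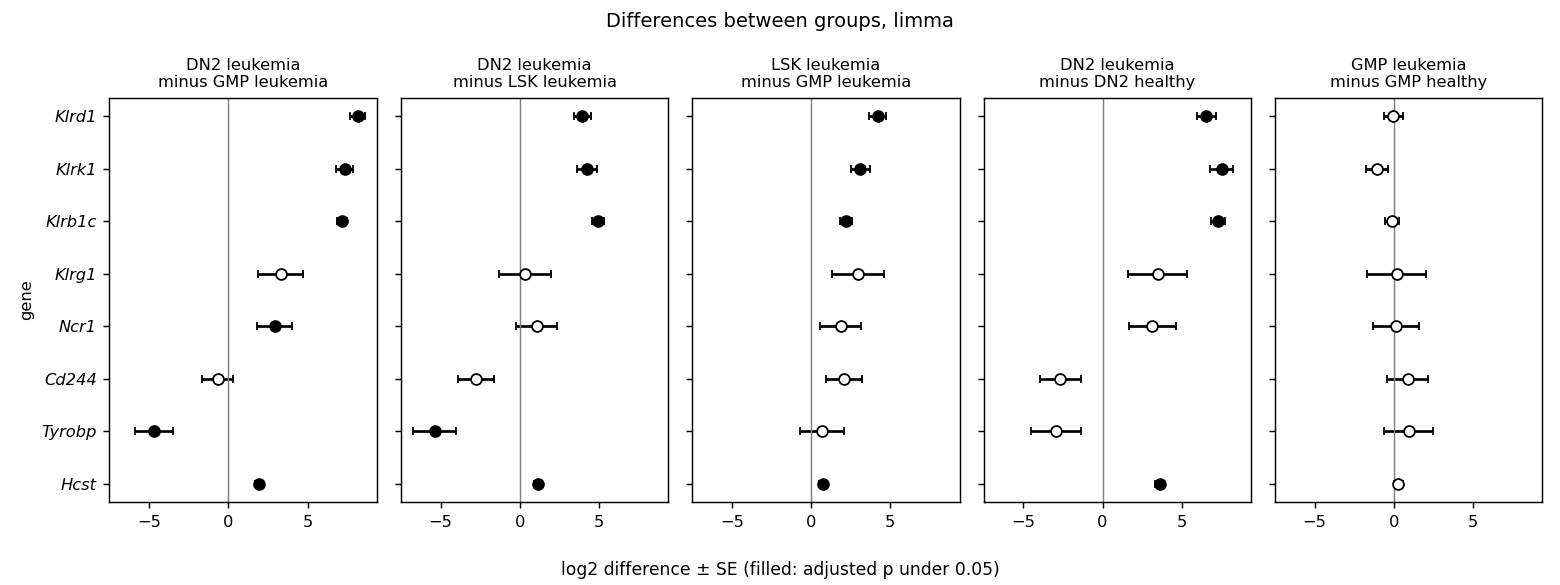
Log2 difference of each tested NK receptor or adaptor gene (x axis) with its standard error from limma, for 5 comparisons, with the genes on the y axis and filled points for an adjusted p under 0.05. Klrd1, Klrk1 and Klrb1c lie right of 0 in all 3 comparisons that set the DN2-labelled leukemias against another group, and Tyrobp lies left of 0 in them, without a call against healthy DN2 cells.

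Compared with healthy DN2 cells, their named cell of origin, the DN2-labelled leukemias were higher in Klrb1c by 7.29 ± 0.44 (SE, adjusted p = 1.30e-08), Klrk1 by 7.52 ± 0.72 (adjusted p = 2.11e-06), Klrd1 by 6.55 ± 0.60 (adjusted p = 1.33e-06) and Hcst by 3.61 ± 0.30 (adjusted p = 4.15e-07). Of all genes tested 9.49% were higher and 13.7% lower, and of the 8 genes 4 were higher and none was lower. The arrays did not overlap for 5 of 8 genes, which is close to the 50.0% of all genes. Klrg1 (3.48 ± 1.86, adjusted p = 0.211), Ncr1 (3.14 ± 1.47, adjusted p = 0.146), Cd244 (-2.68 ± 1.30, adjusted p = 0.163) and Tyrobp (-2.92 ± 1.57, adjusted p = 0.215) did not pass. Each of these 4 rests on a group with an SD of 2.36 to 4.20. All 4 passed with array weights (adjusted p from 0.00346 to 0.0237). Without DN2-labelled arrays 1 and 3 the difference was -5.38 for Tyrobp (adjusted p = 3.52e-05) and -4.40 for Cd244 (adjusted p = 0.00368).

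The GMP-labelled leukemias and healthy GMP did not differ by the test in any of the 8 genes, beside 8.09% of all genes higher and 13.1% lower. No gene had an unadjusted p under 0.05 in limma either, and the smallest adjusted p was that of Klrk1 (-1.07 ± 0.72, adjusted p = 0.31). Klrk1 was called with only these groups in the limma fit (adjusted p = 0.0078), and Hcst with array weights (0.58, adjusted p = 0.0254). The 4 lectin-like receptors and Ncr1 were near background in both groups apart from Klrk1 in healthy GMP.

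Between the healthy progenitors, Hcst was lower in DN2 cells than in GMP by a difference of -1.42 ± 0.35 (SE, adjusted p = 0.0163), the only call among the 8 genes, beside 5.40% of all genes lower and 5.78% higher. That call was lost without either DN2 array and without GMP array 2 (adjusted p from 0.0773 to 0.169). Klrd1 was higher in healthy DN2 cells by 1.56 without passing (SE 0.71, adjusted p = 0.201), and Cd244 was higher there by 2.88 without passing (SE 1.55, adjusted p = 0.293). All groups share 1 estimate of spread, which holds the wide DN2-labelled leukemias. With only the 4 healthy arrays in the fit, the calls were Klrd1 (adjusted p = 0.00586), Klrk1 (-1.25, adjusted p = 9.47e-04), Cd244 (adjusted p = 8.10e-05), Tyrobp (-0.85, adjusted p = 0.00135) and Hcst.

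The change from healthy cells to leukemia was then compared between the origins, as the difference for DN2 minus that for GMP. It was called for Klrk1 (8.60, adjusted p = 3.90e-05), Klrb1c (7.44, adjusted p = 1.26e-06), Klrd1 (6.60, adjusted p = 9.06e-05) and Hcst (3.32, adjusted p = 7.61e-05), 4 of 8 genes where 6.39% of all genes were called in that direction and 6.28% in the other. Tyrobp (-3.84, adjusted p = 0.297) and Cd244 (-3.56, adjusted p = 0.241) did not pass. These comparisons share arrays with those above and are not separate evidence.

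Other genes of the same receptor families were read from a list of 20 further lectin-like NK receptors, of which 10 were tested. Between DN2-labelled and GMP-labelled leukemias 7 were higher and 1 lower, beside 21.0% and 18.8% of all genes tested, with a median difference of 3.79. Klrc1, the inhibitory NKG2A partner of CD94, was 10.61, 5.47, 10.87, 9.35 and 10.19 in DN2-labelled arrays 1 to 5, low in array 2 although Klrd1 was high there, and was higher by 6.18 ± 0.77 (SE, adjusted p = 1.43e-05). Klra7, an inhibitory Ly49 receptor, was higher by 6.31 ± 0.73 (adjusted p = 6.67e-06) and Klrb1a by 5.35, whereas Klra17 was lower (-4.52). Many Ly49 genes are close in sequence, as are the NKG2 genes of the Klrc family, and how the probe sets divide signal among them is uncertain. Against healthy DN2 cells 5 of the 10 were higher and none was lower, beside 9.49% and 13.7% of all genes tested.

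Of 19 listed ligands of these receptors, 10 had a probe set. The filter on dim genes kept 5 of them for testing. Of these, 4 were higher in DN2-labelled than in GMP-labelled leukemias, beside 21.0% of all genes tested: the Clec2 genes Clec2i (3.28) and Clec2d (2.03), which encode ligands of Klrb1-family receptors, the Klrg1 ligand Cdh1 (1.64) and H2-T23, which encodes Qa-1 (1.19). Cdh1 was highest in healthy DN2 cells, with a mean of 7.36 against 4.75 ± 0.81 in the DN2-labelled leukemias (SD, n = 5), a difference that was called. Pvr, which encodes a Cd226 ligand, gave 0.12 and was not called.

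Receptors of myeloid cells that signal through Tyrobp were lower in the same comparison. Of 8 tested, 7 were lower in DN2-labelled arrays than in GMP-labelled ones and none was higher, beside 18.8% and 21.0% of all genes tested, with a median difference of -5.26. Trem3, an activating receptor of granulocytes and macrophages, was lower by a difference of -7.53, Pilrb1 by -6.24, Clec5a by -6.23 and Cd300lb by -5.44. Their levels did not follow Tyrobp within the DN2-labelled group. Clec5a was 3.17 and 3.41 in arrays 1 and 3, in which Tyrobp was high, and Trem3 was 6.86 in array 1 but 3.22 in array 3. Healthy DN2 cells held Trem3 at 2.89 and 3.09 beside high Tyrobp. Against healthy DN2 cells none of the 8 was called in either direction (limma), and neither was Tyrobp. Neutrophil markers were lower in the same comparison, all 9 of them, and their part in the lower Tyrobp was not tested.

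Of 21 proximal signalling genes tested, 8 were higher and 6 lower in DN2-labelled than in GMP-labelled arrays, beside 21.0% and 18.8% of all genes tested. The median difference was 0.30. The higher genes were led by Sh2d1a, the adaptor of Cd244 and other SLAM receptors (8.19), the kinase Zap70 (5.98), the T-cell adaptor Lat (5.61) and Cd247 (5.60). Lat2, the related adaptor of B and myeloid cells, was higher as well (4.27). Sh2d1a ran from 10.95 to 11.30 in all 5 DN2-labelled arrays, including the 3 in which Cd244 was low. Pik3cb was lower (-3.15), as was the ITAM kinase Syk (-0.83), which was near background in most arrays.

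Other co-receptors of NK and T cells moved with the lectin-like receptors in part. Of 12 tested, 8 were higher and 3 lower in this comparison of DN2-labelled with GMP-labelled arrays, beside 21.0% and 18.8% of all genes tested, led by Cd2 (7.86), Crtam (6.58), Slamf6 (6.18) and Cd27 (5.72). Cd96, which shares ligands with Cd226, was 7.51, 5.20, 7.36, 6.03 and 4.78 in DN2-labelled arrays 1 to 5 and 9.51 and 9.29 in healthy DN2 cells. It was thus below the healthy cells in every leukemia array, and that difference was called. Among 17 transcription factors and cytokine receptors of NK cells, 10 were higher and 1 lower against the same shares, led by Eomes (7.18) and Tbx21 (6.69), the T-box factors of NK and effector T cells, with Il2rb (5.45), the shared receptor chain for interleukin 2 and 15. Among 16 cytotoxic effectors 13 were higher and none was lower, beside 21.0% and 18.8% of all genes, with Gzma (8.46), Gzmk (8.15), Ccl5 (7.93) and Ifng (7.41) in front. Gzma was also high in the LSK-labelled leukemias (10.98 ± 0.57, SD, n = 3) and in healthy DN2 cells (9.09 and 9.15), and at background in the GMP-labelled leukemias (3.44 ± 0.30, SD, n = 5). Many genes of these lists are shared with activated T cells, and the T cell markers were higher in the same arrays.

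The genes most like each receptor over the 17 arrays were found by the root mean square difference of centred log2 values, among 11624 other genes. For Klrb1c these were Gimap4 (0.30) and Tbx21 (0.42), for Klrd1 Gimap4 (0.89) and Klrb1c (0.89), and for Klrk1 Klra7 (0.67) and Cd2 (0.79). Klrg1 was nearest to Cma1, a chymase gene (0.55), and to Ncr1 (0.68), and Ncr1 was nearest to Cma1 (0.32) and Klrg1 (0.68). Cd244 had no close match (Parp12 at 0.98 and Slfn8 at 1.02), nor had Tyrobp (Grn at 1.08 and Fgl2 at 1.12). Hcst was nearest to Ly9, another SLAM-family gene (0.50), and Malt1 (0.52). Smaller values mean closer profiles, and arrays of a group share their group's level, so these distances mostly follow the groups.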

How the data were processed

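Expression was measured in 17 samples on Affymetrix arrays from 300 ng of total RNA each, per the labels' protocols. The authors deposited log2 values per probe set, summarised with RMA and affy per the submitters' processing notes. Tool versions were not given in the sources used here. Whether all arrays were normalized together is not stated. Of 45141 probe sets in the table, 104 controls were dropped. The platform annotation gave 28898 probe sets a single symbol and 551 several, and 15588 were not listed. Names were updated by Entrez identifier (28689 matched) through the RefSeq table of GRCm38.p6. No detection calls are given, and the number of arrays limits the precision.

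All 17 arrays entered 1 fit with a mean per group in limma 3.58.1 (lmFit and eBayes, R 4.3.3). P-values are two-sided and adjusted by Benjamini-Hochberg over 11625 genes per comparison. Calls were made under an adjusted 0.05. The procedure was tested on simulated arrays. The receptor genes, the lists, the motifs and the alternatives were chosen with earlier results of these data known. Named besides the 10 genes were Itgam, Cd3e, Mycn and Bcl2 as checks of the labels, up to 4 genes per list with the largest difference between DN2-labelled and GMP-labelled leukemias, partner chains, ligands and adaptors, and the 2 nearest genes of each tested gene. Alternatives were the mean over probe sets, other filters on dim genes, quantile normalization, only the groups compared, an intensity trend, array weights, a replicate block, leaving out each array, and leaving out arrays that stood apart. Marker lists for dendritic, B and erythroid cells were also read, and the mean of each list stayed at or below 6.71 in every array. Single genes stood higher. Hba-a1 ran from 8.09 to 13.06 in the leukemia arrays, against 7.07 and 7.26 in healthy DN2 cells. LSK-labelled arrays 2 and 3 held Ms4a1 at 6.92 and 7.60 and Cd209a at 6.01 and 6.51, both at most 3.66 in the GMP-labelled arrays. Zbtb46, Cd79a and Epor of the same lists did not exceed 4.52 in any array.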

Additional observations from a re-analysis of the deposited data

Results flagged for a closer look

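Klrb1c in DN2-labelled leukemia array 5 (9.86) lay apart from the other 4 arrays of its group, with a gap of 0.775 of the group's whole range. It was 1 of 18 groups tested in this way, and chance alone sets about 1 in 20 apart.

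The change from healthy cells to leukemia differed between DN2 and GMP origin, by the interaction in limma, for Klrd1 (6.60, adjusted p = 9.06e-05), Klrk1 (8.60, adjusted p = 3.90e-05), Klrb1c (7.44, adjusted p = 1.26e-06) and Hcst (3.32, adjusted p = 7.61e-05). All 5 DN2-labelled arrays lay above both healthy DN2 arrays for each of these genes.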

How the results depend on the processing

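Of 955 alternative values of the differences of single genes, 886 kept their direction and their side of the threshold, 29 passed where the main value did not, 25 no longer passed and 15 turned sign. Klrd1, Klrk1, Klrb1c and Hcst kept their calls under every alternative run for the DN2-labelled leukemias against the GMP-labelled leukemias, the LSK-labelled leukemias and healthy DN2 cells, and for the interaction. The number of genes called rose from 5 to 8 for DN2-labelled against LSK-labelled leukemias without DN2-labelled arrays 1 and 3, by Klrg1, Ncr1 and Cd244 as lower, and fell from 4 to 1 for LSK-labelled against GMP-labelled leukemias without LSK-labelled arrays 2 and 3. With array weights it was 8 for DN2-labelled leukemias against healthy DN2 cells (4 otherwise), 1 for GMP-labelled leukemias against healthy GMP (0 otherwise) and 4 between the healthy groups (1 otherwise). With only the groups compared in the fit it was 1 and 5 for the last 2 of these. Leaving out each array in turn gave 0 to 1 between the healthy groups. The cause was not tested. The labels do not say that replicate numbers pair the arrays. Deviations from the group means correlated from -0.30 to 0.25 between arrays of the same number (25 pairs, 6 above 0.1). These pairs share arrays, and such values cannot exclude a pairing. With the replicate block the counts of genes called were 5, 5, 4, 4, 0, 1 and 4, against 6, 5, 4, 4, 0, 1 and 4, for DN2-labelled against GMP-labelled and LSK-labelled leukemias, LSK-labelled against GMP-labelled leukemias, DN2-labelled and GMP-labelled leukemias against healthy cells, the healthy groups and the interaction. The block took the Ncr1 call (adjusted p = 0.0513).

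Signs turned only for differences that were not called with all arrays. Klrg1 between DN2-labelled and LSK-labelled leukemias was -0.25 with array weights, -0.81 to 1.23 with 1 array left out, negative only without DN2-labelled array 1 or 3, and -2.70 without both. Ncr1 was -1.28 there without both, and these last values of both genes were called. Tyrobp between LSK-labelled and GMP-labelled leukemias was -0.002 with the replicate block. For GMP-labelled leukemias against healthy GMP, leaving out 1 array gave -0.099 to 0.011 for Klrd1 (0.010 with array weights), -0.45 to 0.15 for Klrb1c and -0.016 to 0.27 for Ncr1. Between the healthy groups it gave -0.57 to 0.035 for Klrb1c, -0.14 to 0.12 for Klrg1 (0.071 with quantile normalization) and -0.24 to 0.051 for Ncr1.

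Over all genes the number called moved by more than 1.5 times in some fits. It went from 5514 to 3210 without LSK-labelled arrays 2 and 3 for DN2-labelled against LSK-labelled leukemias, and from 3108 to 1409 for LSK-labelled against GMP-labelled leukemias, where it was 1700 with only the groups compared and 1890 without LSK-labelled array 2. With array weights it rose from 2695 to 5885 for the DN2-labelled leukemias and from 2463 to 6054 for the GMP-labelled leukemias against their healthy cells. Leaving out a healthy array lowered these to 1235 or 1260 and to 855 or 909. Between the healthy groups the count was 1300, with 604 to 800 when an array was left out, 5312 with only those groups and 5439 with array weights. For the interaction it was 1473, with 789 to 927 when a healthy array was left out and 5243 with array weights.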

Other observations

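The NK gene complex between Klrb1c and Klrk1 on chromosome 6 holds lectin-like genes of NK and T cells beside lectin-like genes of myeloid cells. By the RefSeq order 19 protein-coding genes lie between them, of which 16 had a probe set and 11 were tested. The stretch was chosen after values of the data were seen. Between DN2-labelled and GMP-labelled leukemias 5 of the 11 were higher, beside 21.0% of all genes tested, and 3 were lower, beside 18.8%. The higher genes were Klrb1b (4.95), Cd69 (3.93), Klrb1f (3.40), Clec2i (3.28) and Clec2d (2.03), and the lower ones were Olr1 (-5.97), Clec7a (-5.36) and Tmem52b (-1.34). Cd69, an early activation marker of lymphocytes, was between 9.99 and 12.20 in the DN2-labelled arrays, and as high in healthy DN2 cells (11.64 and 11.27). Clec7a encodes dectin-1, a receptor of myeloid cells for fungal glucans. It was 9.60 in DN2-labelled array 1 and 3.76, 4.34, 4.06 and 3.97 in arrays 2 to 5, so array 3, which held Klrg1, Ncr1 and Tyrobp at the level of array 1, did not share its Clec7a. Neighbouring genes of the complex thus differed in direction between the same groups.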
